A study of Rattus norvegicus with 4 samples.

Results

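The genes described here encode the hydrolases of the lysosome, its membrane proteins, the receptors that deliver its enzymes, and the transcription factors Tfeb and Tfe3. They were taken by gene symbol from a list of 46 names, of which 44 had a row among the 16290 genes of the deposited table, each a single row. M6pr and Sgsh are not analysed here. All 44 passed the filter on low values, among 12838 genes tested, with normalised read counts of 56 to 4034. The cells were neonatal rat cardiomyocytes at stage P3 that had been given an adenovirus, a virus used as a gene carrier, encoding Pdk3 or mock, with 2 libraries in each group (Pdk3 1 and Pdk3 2, Mock 1 and Mock 2). All groups share the species, the cell type, the stage, the culture medium with horse serum and the exposure to a viral vector, and no untreated cells are among the libraries. Polyadenylated RNA was sequenced from stranded libraries. Whether the 2 libraries of a group are separate cultures is not in the labels, so the p-values describe only how far these libraries differ, which may be technical spread.

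Lysosomes are acidic organelles in which proteins, glycogen, glycans and lipids delivered by endocytosis and autophagy are broken down. Most of their soluble enzymes are tagged with mannose 6-phosphate in the Golgi apparatus and carried by receptors to the endosome. Tfeb and Tfe3, relatives of Mitf, bind a palindromic E-box in the promoters of many lysosomal genes, the CLEAR element, when nutrient signalling through the kinase mTOR on the lysosomal surface is low. Heart muscle depends on this system, as shown by inherited cardiac disease in people who lack GAA, which degrades glycogen (Pompe disease), GLA (Fabry disease) or LAMP2 (Danon disease).

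The sequence that Tfeb and Tfe3 are known to bind is shown first. It is known from promoters of lysosomal genes, so its share among these members is not independent of how they were chosen. RefSeq promoter windows of the GRCr8 build, from 250 bases before to 50 after a gene's start, were found by symbol for 38 of the 46 members. They were searched for the E-box core CACGTG, a palindrome that reads alike on both strands. It was present in the windows of 12 members, which is 31.6%, against 6.42% of all 33469 windows and 9.64% of the 9539 tested genes with a window. The inner 8 letters of the CLEAR element, TCACGTGA, which contain that core, were present in 6 members (15.8%), against 0.777% of all windows and 1.76% of tested genes with a window. The full palindrome of 10 letters, with a further G and C outside these 8, was present in 2 members, Galc and Igf2r (5.3%). It was present in 0.233% of all windows and 0.56% of tested genes with a window. The windows compared were not matched for base composition, and a match is a stretch of letters, not a measured binding site. Stretches of 40 bases from 9 members follow, each 5′ to 3′ on the gene's strand with the core in capitals. The first 3 come from members that were lower in Pdk3 libraries, and the other 6 from the members holding the 8-letter form, none of which passed the test.
Gaa (chr10:105028271-105028310, plus strand, core 67 bases before the start): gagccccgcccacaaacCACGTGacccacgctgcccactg
Idua (chr14:1190909-1190948, minus strand, core 3 bases before the start): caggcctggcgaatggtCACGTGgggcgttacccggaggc
Tmem175 (chr14:1234186-1234225, minus strand, core 190 bases before the start): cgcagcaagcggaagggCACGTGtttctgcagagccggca
Lamp1 (chr16:83075106-83075145, minus strand, core 65 bases before the start): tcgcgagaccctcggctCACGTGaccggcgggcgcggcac
Mcoln1 (chr12:6358245-6358284, plus strand, core 4 bases after the start): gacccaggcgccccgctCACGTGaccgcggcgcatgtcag
Ctsd (chr1:206968809-206968848, minus strand, core 10 bases before the start): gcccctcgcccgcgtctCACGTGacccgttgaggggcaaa
Cln3 (chr1:190597945-190597984, minus strand, core 38 bases before the start): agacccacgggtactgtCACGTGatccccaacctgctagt
Galc (chr6:123245557-123245596, minus strand, core 20 bases before the start): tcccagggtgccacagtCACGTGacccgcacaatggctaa
Igf2r (chr1:50526776-50526815, plus strand, core 85 bases before the start): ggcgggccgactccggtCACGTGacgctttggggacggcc

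Normalised read counts summed to 4476649 and 4470251 in the Pdk3 libraries and to 4448199 and 4454567 in the Mock libraries. They correspond to an estimated 4139000 to 4707000 reads in genes per library. Pdk3, a kinase that inhibits the pyruvate dehydrogenase complex, had 1218 and 1177 in the Pdk3 libraries, against 396 and 411 in the Mock libraries (2.97-fold higher, limma adjusted p = 1.47e-06), and vector transcripts are not separated from endogenous ones. The libraries of a pair were closer to each other than counting noise, with a chi-square per gene of 0.547 for the Pdk3 pair and 0.553 for the Mock pair, where independent counting gives about 1. For this reason the calls of each list below are also counted with p floored at counting noise. This floor puts an exact binomial p, from the estimated reads of both groups, in place of limma's p wherever it is larger.

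Some lysosomal genes were called a little lower with Pdk3, and none was called higher. Of the 44 members, 11 fell, 0 rose and 33 did not pass (limma, adjusted p under 0.05), against 11.3% of all genes tested that were lower and 11.7% that were higher. The share of members that fell was 25%. By role it was 27.3% for glycosidases, 25% for cathepsins and peptidases and 14.3% for membrane proteins. It was 50% for the 4 sulfatases and 0% for the lipid hydrolases, and that of membrane proteins lies near the share of all genes. The falls of the 11 called members were small, between 9.3% for Ids and 15.2% for Arsa, Tfe3 and Tmem175. Cln3, which did not pass, had a mean 28.3% lower. Of the 33 members that did not pass, 23 had a 95% interval between -0.2 and 0.2 on the log2 scale. The median log2 fold change was -0.05, against -0.01 over all genes tested, and 35 members lay below 0 and 9 above. At an unadjusted p under 0.05, 16 of the 44 members were lower and 1, Ctsb, was higher (limma). Over all genes tested, 18.6% were lower and 17.8% higher at that level.

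**Figure D1:**
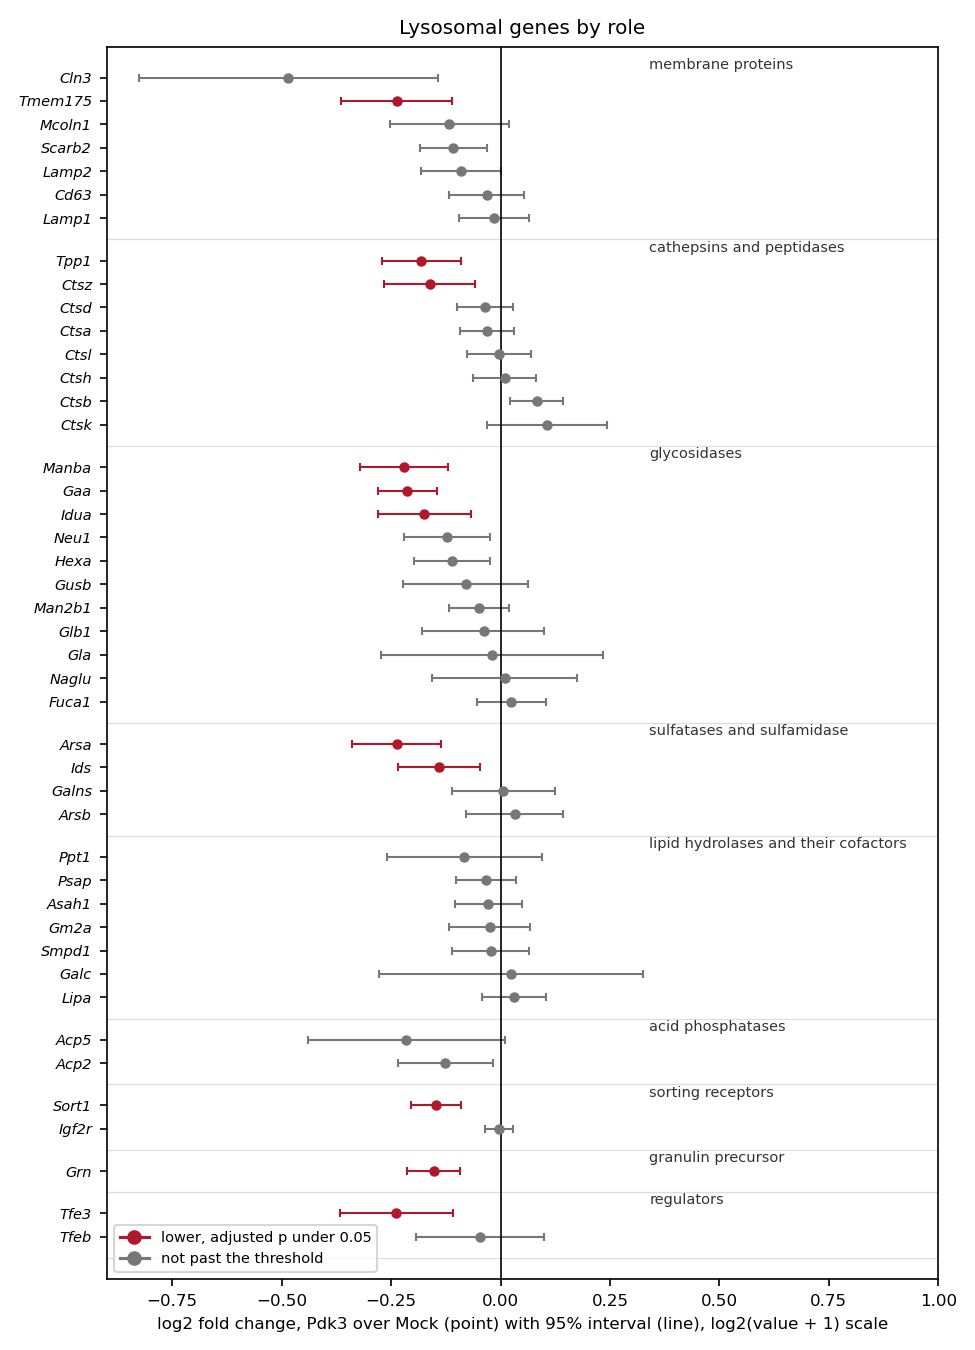
Log2 fold change of Pdk3 over Mock for the 44 lysosomal genes with a row, grouped by role, on the log2(value + 1) scale. Points are limma estimates, lines their 95% intervals over 2 libraries a group, and red marks the 11 genes that were lower with an adjusted p under 0.05. Red points lie between -0.24 and -0.14, and the lipid hydrolases hold none.

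In 22 of the 44 members both Pdk3 libraries lay below both Mock libraries, and in 2, Ctsb and Ctsk, both lay above. Over all genes tested, 31.1% had both Pdk3 libraries below both Mock libraries and 29.9% had both above. All 11 members called lower were among those 22, and in the remaining 20 members the groups overlapped.

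Of the regulators, Tfe3 fell and Tfeb did not pass. Tfe3 (ENSRNOG00000009605, chromosome X, 15575934 to 15587419, minus strand, rn6) stood at normalised read counts of 234 and 250 in Pdk3 libraries, against 283 and 288 in Mock libraries. Its mean was 242.0 ± 11.3 in Pdk3 libraries and 285.5 ± 3.5 in Mock libraries (SD, n = 2 each), with a log2 fold change of -0.24 ± 0.05 (SE, limma adjusted p = 0.0202). With p floored at counting noise its call ended (adjusted p = 0.0535). Tfeb (ENSRNOG00000014666, chromosome 9, 15207822 to 15214596, minus strand, rn6) had 347 and 366 in Pdk3 libraries, against 391 and 347 in Mock libraries. The groups of Tfeb overlapped, and its log2 fold change of -0.05 had a 95% interval of -0.19 to 0.10 (limma adjusted p = 0.630). That interval and the one of Tfe3, -0.37 to -0.11, share values, and the difference between both factors was not tested. These are transcript levels. Activity of both factors is known to be set largely by phosphorylation and entry into the nucleus, which RNA counts do not record.

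Glycosidases, the enzymes that cut sugars from glycogen and glycans, had 3 of 11 members lower. Gaa, the acid alpha-glucosidase that degrades glycogen (ENSRNOG00000047656, chromosome 10, 108395860 to 108413059, plus strand, rn6), had 868 and 901 in Pdk3 libraries, against 1013 and 1037 in Mock libraries. Both Pdk3 libraries lay well below both Mock libraries, and the mean was 13.7% lower, with a log2 fold change of -0.21 ± 0.03 (SE, limma adjusted p = 0.00223). This was the smallest adjusted p among the members. Manba, the beta-mannosidase (ENSRNOG00000052247, chromosome 2, 240668195 to 240760261, plus strand, rn6), had 399 and 423 in Pdk3 libraries, against 486 and 472 in Mock libraries (log2 fold change -0.22 ± 0.04, limma adjusted p = 0.0103). Idua, which removes iduronic acid from dermatan and heparan sulfate (ENSRNOG00000000043, chromosome 14, 2042411 to 2056762, minus strand, rn6), had 398 and 403 in Pdk3 libraries, against 436 and 469 in Mock libraries. The groups did not overlap in either gene. The call of Idua (log2 fold change -0.17, limma adjusted p = 0.0311) ended with p floored at counting noise (adjusted p = 0.0694).

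The other 8 glycosidases did not pass. Hexa, the alpha subunit of beta-hexosaminidase, had 520 and 540 in Pdk3 libraries, against 563 and 582 in Mock libraries. The sialidase gene Neu1 had 337 and 330 in Pdk3 libraries, against 364 and 362 in Mock libraries. Both genes had groups that did not overlap, with adjusted p of 0.0675 for Hexa and 0.0764 for Neu1 (limma). Hexa passed as lower with a minimum value of 50 (limma adjusted p = 0.0409). Gla, the alpha-galactosidase, had 130 and 128 in Pdk3 libraries, between the 118 and 145 of the Mock libraries. Its 95% interval, -0.27 to 0.23 on the log2 scale, was wide at this depth. The beta-galactosidase gene Glb1, the beta-glucuronidase gene Gusb, the alpha-mannosidase gene Man2b1, Naglu of heparan sulfate breakdown and the fucosidase gene Fuca1 had log2 fold changes between -0.08 for Gusb and 0.02 for Fuca1.

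Among the sulfatases, which remove sulfate from glycans and lipids, 2 of 4 were lower. Arsa, which acts on the myelin lipid sulfatide (ENSRNOG00000012953, chromosome 7, 130446668 to 130451283, minus strand, rn6), had 370 and 375 in Pdk3 libraries, against 452 and 427 in Mock libraries. Its mean was 372.5 ± 3.5 in Pdk3 libraries and 439.5 ± 17.7 in Mock libraries (SD, n = 2 each), a log2 fold change of -0.24 ± 0.04 (SE, limma adjusted p = 0.00789). Ids, the iduronate sulfatase (ENSRNOG00000001465), had 348 and 346 in Pdk3 libraries, against 384 and 381 in Mock libraries, 9.3% lower (limma adjusted p = 0.0434). The call of Ids ended with p floored at counting noise (adjusted p = 0.224) and with TMM scaling (0.0523). The deposited table places it on chromosome 8 (69449801 to 69466618, minus strand, rn6), whereas RefSeq places the rat gene on chromosome X. Arsb had 580 and 640 in Pdk3 libraries, around the 597 and 594 of the Mock libraries, and Galns had 301 and 321 in Pdk3 libraries, against 308 and 311 in Mock libraries. The groups of both overlapped, with log2 fold changes of 0.03 for Arsb and 0.006 for Galns.

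Cathepsins and other lysosomal peptidases had 2 of 8 members lower, Tpp1 and Ctsz. Tpp1, which releases tripeptides from the amino end of proteins (ENSRNOG00000019212, chromosome 1, 170588035 to 170594168, minus strand, rn6), had 532 and 543 in Pdk3 libraries, against 627 and 592 in Mock libraries. It was 11.8% lower, with a log2 fold change of -0.18 ± 0.04 (SE, limma adjusted p = 0.0144). Ctsz, a carboxypeptidase (ENSRNOG00000050697, chromosome 3, 172527107 to 172537877, minus strand, rn6), had 318 and 310 in Pdk3 libraries, against 347 and 356 in Mock libraries. Its call (limma adjusted p = 0.0371) ended with p floored at counting noise (0.155) and with the replicate block (0.0593).

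The other 6 did not pass. With ribosomal protein scaling Ctsa and Ctsd were lower as well, 4 of the 8 in all, against 29.0% of all genes. Ctsb, a cysteine protease, had 1147 and 1127 in Pdk3 libraries, against 1092 and 1057 in Mock libraries. Both Pdk3 libraries lay above both Mock libraries by a small margin, 5.8% in the means, which did not pass (log2 fold change 0.08, limma adjusted p = 0.0612). It passed as higher with TMM scaling (adjusted p = 0.0301) and with a minimum value of 50 (0.0344), and with ribosomal protein scaling its value was -0.01. Ctsk, the collagen-degrading cathepsin of osteoclasts, had 209 and 214 in Pdk3 libraries, against 198 and 195 in Mock libraries (limma adjusted p = 0.242). Ctsl had 673 and 688 in Pdk3 libraries, against 672 and 692 in Mock libraries, nearly the same pair of values. Its 95% interval was -0.08 to 0.07 on the log2 scale. The aspartic protease gene Ctsd, with 1157 and 1122 in Pdk3 libraries against 1187 and 1149 in Mock libraries, overlapped as well. Ctsh had a log2 fold change of 0.009 and Ctsa, a carboxypeptidase that protects Neu1 and Glb1 in a complex, of -0.03.

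None of the 7 lipid hydrolases and their cofactors passed in either direction, and at an unadjusted p under 0.05 there were also 0 (limma). With ribosomal protein scaling 3 of the 7 were lower, against 29.0% of all genes. In all 7 the groups overlapped. Psap, the precursor of the saposins that present sphingolipids to their enzymes, had 1425 and 1350 in Pdk3 libraries, against 1433 and 1405 in Mock libraries. Lipa, the lysosomal acid lipase, had 772 and 801 in Pdk3 libraries, against 761 and 779 in Mock libraries. The acid sphingomyelinase gene Smpd1 had 708 and 729 in Pdk3 libraries, against 707 and 753 in Mock libraries. Log2 fold changes of the group lay between -0.08 for the thioesterase gene Ppt1 and 0.03 for Lipa, with a median of -0.025, close to the -0.007 of all genes. For Lipa the 95% interval was -0.04 to 0.10, for Psap -0.10 to 0.04 and for Smpd1 -0.11 to 0.07. The galactosylceramidase gene Galc, with 89 and 83 in Pdk3 libraries against 76 and 94 in Mock libraries, was measured less precisely (-0.28 to 0.33). The acid ceramidase gene Asah1 and the ganglioside activator gene Gm2a each had a log2 fold change of -0.03. Asah1 overlaps Pcm1 on the other strand in rn6, with 1524 and 1484 for Pcm1 in Pdk3 libraries and 1406 and 1448 in Mock libraries, so its reads are uncertain where the counting did not use strand.

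All 7 membrane proteins had negative log2 fold changes, and 1 of them, Tmem175, passed. With ribosomal protein scaling all 7 passed as lower, against 29.0% of all genes. Tmem175, a potassium and proton channel of the lysosomal membrane (ENSRNOG00000000044, chromosome 14, 2083712 to 2100005, minus strand, rn6), had 225 and 233 in Pdk3 libraries, against 275 and 265 in Mock libraries. It was 15.2% lower (log2 fold change -0.24 ± 0.05, limma adjusted p = 0.0194), and its call ended with p floored at counting noise (0.0599). Cln3, the gene of juvenile Batten disease in people, had the most negative value of the list, with 56 and 73 in Pdk3 libraries, against 93 and 87 in Mock libraries. It lay just outside the threshold (log2 fold change -0.49 ± 0.15, limma adjusted p = 0.0501), and it passed with TMM scaling (0.0326) and with a minimum value of 50 (0.0179). Scarb2, the receptor that carries glucocerebrosidase to lysosomes, had 787 and 748 in Pdk3 libraries, against 819 and 835 in Mock libraries (limma adjusted p = 0.0527). Scarb2 passed as lower with a minimum value of 50 (0.023) and with 8 in place of 1 added to each value (0.0486). The calcium channel gene Mcoln1 had 265 and 261 in Pdk3 libraries, against 298 and 273 in Mock libraries (adjusted p = 0.193).

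The structural glycoproteins of the membrane differed little. Lamp1 had 1031 and 965 in Pdk3 libraries, on either side of the 1009 and 1007 of the Mock libraries, with a 95% interval of -0.09 to 0.06 on the log2 scale. Lamp2 had 626 and 585 in Pdk3 libraries, against 650 and 639 in Mock libraries (limma adjusted p = 0.141). Cd63, a tetraspanin, had 446 and 435 in Pdk3 libraries, against 451 and 450 in Mock libraries. The Pdk3 values of Lamp2 and Cd63 were below the Mock values by margins that did not pass.

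Of the sorting receptors, Sort1 fell and Igf2r was level. Sort1, sortilin, which takes some lysosomal proteins from the Golgi without the sugar tag (ENSRNOG00000031814, chromosome 2, 211078334 to 211156312, plus strand, rn6), had 1134 and 1146 in Pdk3 libraries, against 1282 and 1245 in Mock libraries. It was 9.8% lower, with a log2 fold change of -0.15 ± 0.02 (SE, limma adjusted p = 0.00496). Igf2r, the cation-independent receptor of the mannose 6-phosphate tag, had 3997 and 4008 in Pdk3 libraries, against 4034 and 3988 in Mock libraries. Its 95% interval, -0.04 to 0.03 on the log2 scale, was the narrowest among the 44 members. With ribosomal protein scaling both receptors passed as lower, as did 29.0% of all genes. Grn, the granulin precursor, a secreted and lysosomal protein that binds sortilin (ENSRNOG00000021031, chromosome 10, 90376933 to 90383205, plus strand, rn6), had 788 and 793 in Pdk3 libraries, against 879 and 879 in Mock libraries. Grn was 10.1% lower (log2 fold change -0.15 ± 0.03, limma adjusted p = 0.00537). The acid phosphatase genes did not pass. Acp2 had 354 and 336 in Pdk3 libraries, against 383 and 370 in Mock libraries, and Acp5 had 106 and 107 in Pdk3 libraries, against 132 and 116 in Mock libraries. Neither pair of groups overlapped.

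**Figure D2:**
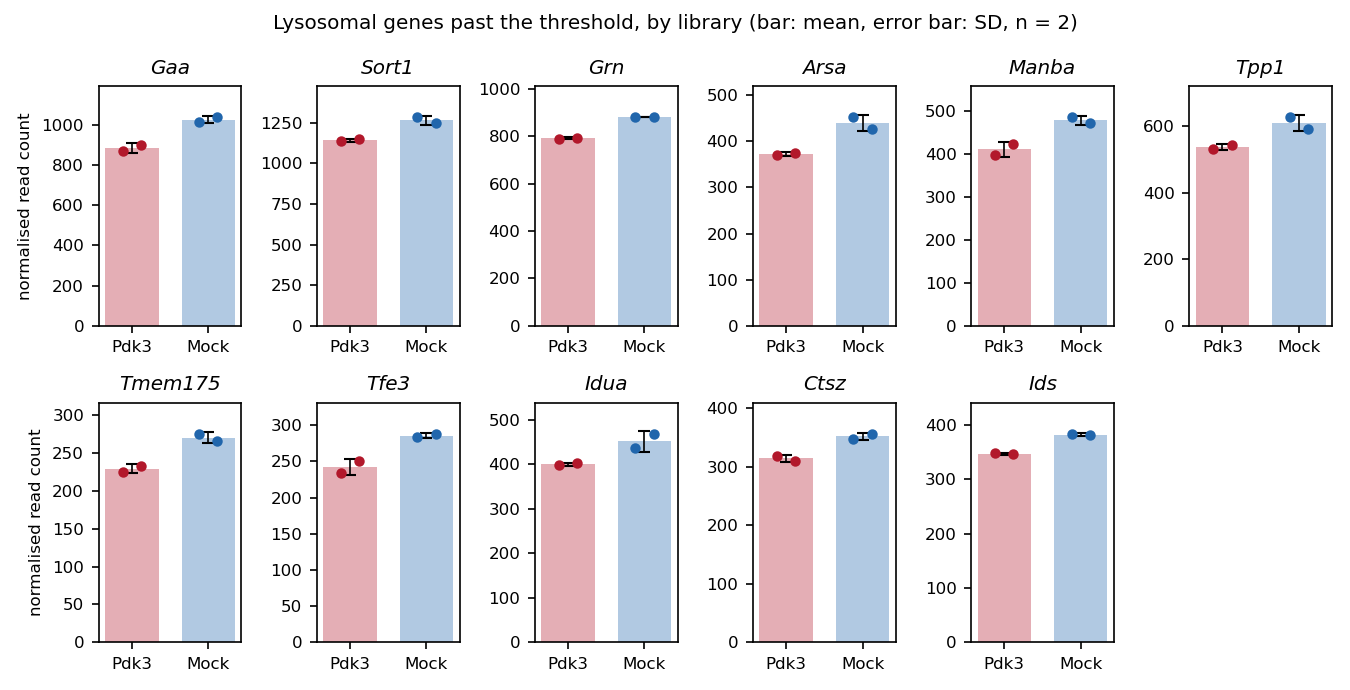
Normalised read counts of the 11 lysosomal genes called lower, ordered by adjusted p from Gaa to Ids, with Pdk3 libraries in red and Mock libraries in blue. Dots are libraries, bars group means and error bars SDs (n = 2), and axes start at 0. In each panel both Pdk3 libraries lie below both Mock libraries, by 9.3% to 15.2% in the means.

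With p floored at counting noise, 6 of the 44 members were lower (Gaa, Sort1, Arsa, Manba, Grn and Tpp1) and 0 higher. By that rule 7.45% of all genes were lower and 8.39% higher. Thus 6 of the 11 calls held, against 957 of the 1449 lower calls over all genes tested. Without an intensity trend 0 of the 11 passed. Libraries were also rescaled so that the median ribosomal protein gene did not differ between them. This step lowers the median of all genes by 0.09 on the log2 scale. After it, 28 of the 44 members were lower, against 29.0% of all genes.

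Genes that work beside these members were described from further lists. Of 38 tested other lysosomal enzymes and membrane proteins, 7 were lower (18.4%) and 1 higher (2.6%), against 11.3% and 11.7% of all genes tested. With p floored at counting noise these were 3 and 0, and the median log2 fold change was -0.08. Cln8, an endoplasmic reticulum protein that exports lysosomal enzymes, had 307 and 311 in Pdk3 libraries, against 403 and 381 in Mock libraries (log2 fold change -0.34, limma adjusted p = 0.00220). Ctsc, which activates serine proteases of granules, had 429 and 431 in Pdk3 libraries, against 505 and 497 in Mock libraries. Sumf1, the enzyme that activates all sulfatases, had 354 and 347 in Pdk3 libraries, against 407 and 400 in Mock libraries (limma adjusted p = 0.0114). In these 3 genes the groups did not overlap, and they are the lower ones of smallest p. Cln6, which works with Cln8 in the endoplasmic reticulum, was the higher one, though not with ribosomal protein scaling, with 309 and 291 in Pdk3 libraries, against 266 and 250 in Mock libraries. Its call (limma adjusted p = 0.0319) ended with p floored at counting noise (0.0694).

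The proton pump that acidifies lysosomes had 0 of 20 tested subunits past the threshold in either direction. At an unadjusted p under 0.05, 1 was lower and 1 higher (limma), against 18.6% and 17.8% of all genes. With ribosomal protein scaling 6 of the 20 were lower, against 29.0% of all genes, and with TMM scaling 1 was higher. Atp6v0a1 had 1156 and 1098 in Pdk3 libraries, against 1136 and 1165 in Mock libraries, and Atp6ap1 974 and 986 in Pdk3 libraries, against 914 and 940 in Mock libraries. Atp6ap1 did not pass (limma adjusted p = 0.0672), but passed as higher with TMM scaling (0.0347) and with a minimum value of 50 (0.0449). With ribosomal protein scaling its log2 fold change was -0.01. In the fit reported, the median of the subunits was -0.02. The 3 genes of mannose 6-phosphate tagging did not pass, also at an unadjusted p under 0.05. Gnptab, a subunit of the transferase that starts the tag, had 799 and 793 in Pdk3 libraries, against 781 and 755 in Mock libraries. Gnptg, another subunit of it, had 111 and 111 in Pdk3 libraries, against 119 and 135 in Mock libraries. The groups did not overlap in either gene, with Gnptab above and Gnptg below Mock.

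In the list of related transcription factors and their nutrient switch, 2 of 19 tested genes were lower (10.5%) and 1 higher (5.3%). These shares were not above the 11.3% and 11.7% of all genes tested. With p floored at counting noise, 0 were lower and 1 higher. Mtor, the kinase that keeps Tfeb and Tfe3 out of the nucleus when nutrients are plentiful, had 1677 and 1681 in Pdk3 libraries, against 1522 and 1531 in Mock libraries. It was higher (log2 fold change 0.14 ± 0.02, limma adjusted p = 0.00242). With ribosomal protein scaling Mtor did not pass (log2 fold change 0.05). Tsc2, an inhibitor upstream of mTOR, had 753 and 774 in Pdk3 libraries, against 827 and 821 in Mock libraries. Gpnmb, a glycoprotein known as a target of this factor family, had 1090 and 1052 in Pdk3 libraries, against 1173 and 1138 in Mock libraries. The calls of Tsc2 and Gpnmb ended with p floored at counting noise (adjusted p = 0.136 for Tsc2 and 0.0678 for Gpnmb).

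Autophagy genes, which deliver cytoplasm to the lysosome, had 15 of 28 lower (53.6%) and 0 higher, against 11.3% and 11.7% of all genes tested. With p floored at counting noise 10 of the 28 were lower, against 7.45% of all genes. At an unadjusted p under 0.05, 17 of the 28 were lower and 0 higher (limma), against 18.6% and 17.8% of all genes. The median log2 fold change of the list was -0.15. Ulk1, the kinase that starts autophagy, had 789 and 740 in Pdk3 libraries, against 958 and 971 in Mock libraries. It was 20.7% lower (log2 fold change -0.34 ± 0.04, limma adjusted p = 0.000622). Its relative Ulk2 had 592 and 599 in Pdk3 libraries, against 702 and 726 in Mock libraries (limma adjusted p = 0.00132). Sqstm1, the cargo receptor p62, had 805 and 788 in Pdk3 libraries, against 902 and 909 in Mock libraries (log2 fold change -0.19, limma adjusted p = 0.00284). In all 3 genes both Pdk3 libraries lay below both Mock libraries. The ratio of lower to tested genes in this list was not tested against that of the lysosomal members.

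**Figure D3:**
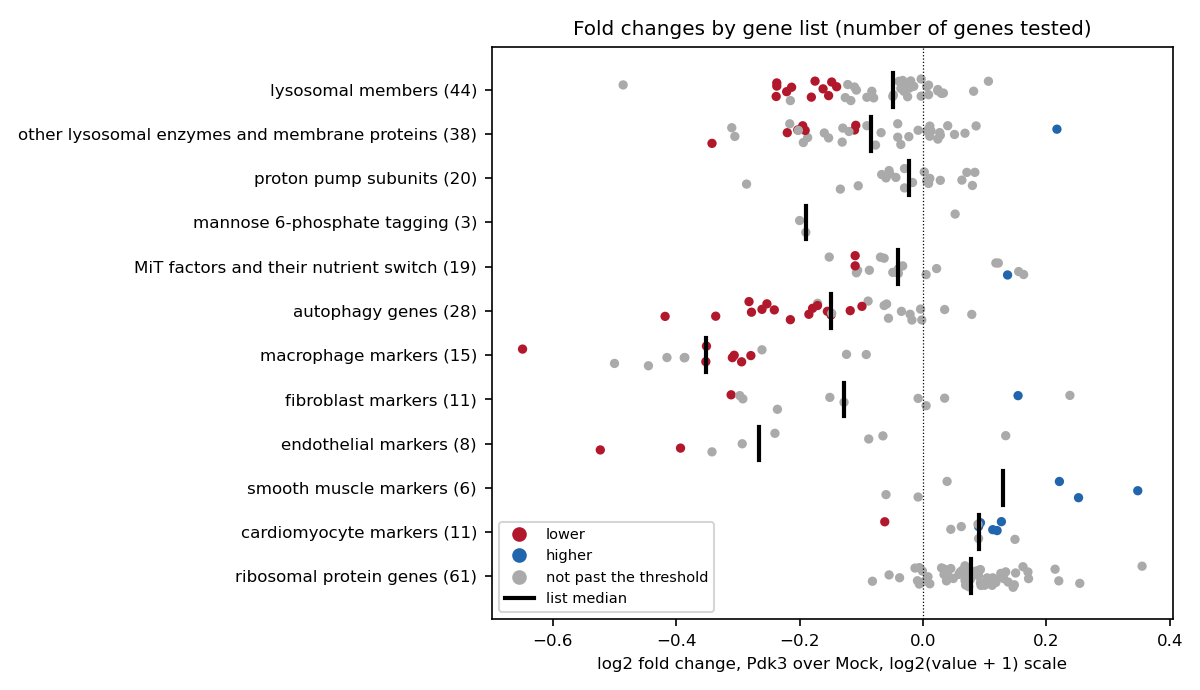
Log2 fold change of Pdk3 over Mock, on the log2(value + 1) scale, for tested genes of the lysosomal list, of 5 related lists, of cell type markers and of ribosomal protein genes. Dots are genes (red lower, blue higher, grey not past the threshold), black bars are medians, and vertical scatter within a row has no meaning. Lysosomal members centre at -0.05, autophagy genes at -0.15 and macrophage markers at -0.35.

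**Figure D4:**
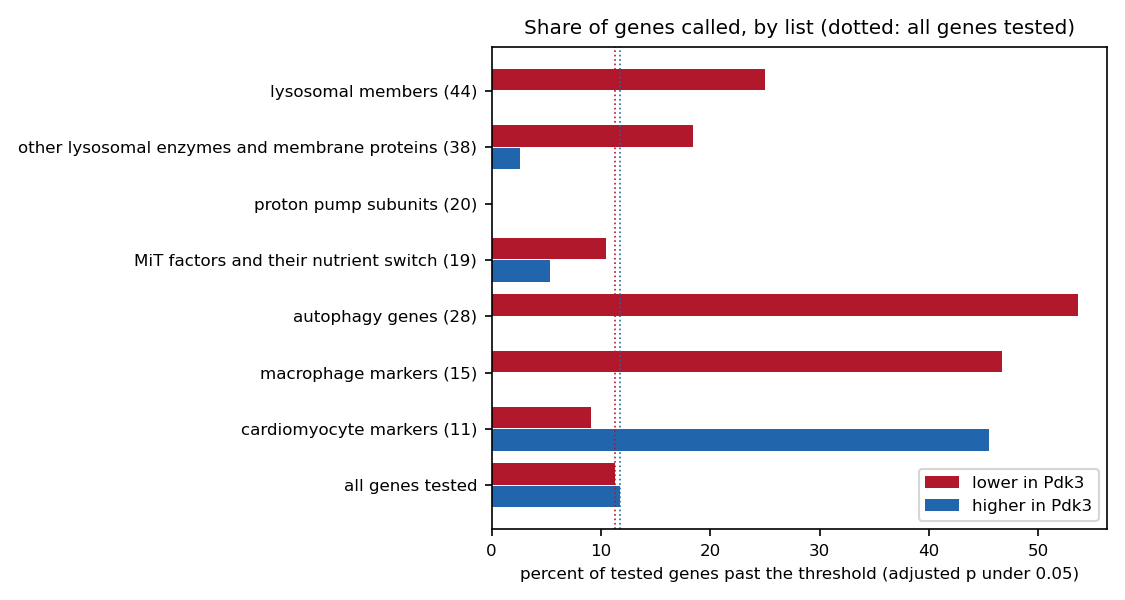
Percent of tested genes past the threshold, lower in Pdk3 (red) and higher in Pdk3 (blue), with the number tested in brackets and dotted lines at the shares of all genes. Lysosomal members have 25% lower and 0 higher, and the proton pump has 0 in both directions.

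Macrophages are rich in lysosomes, and their markers moved in these libraries as well. Of 15 tested macrophage markers 7 were lower (46.7%) and 0 higher, against 11.3% and 11.7% of all genes tested. With p floored at counting noise 6 of the 15 were lower, against 7.45% of all genes. At an unadjusted p under 0.05, 11 of the 15 were lower and 0 higher (limma), against 18.6% and 17.8% of all genes. All 15 lay below 0, with a median of -0.35. Their summed normalised counts were 1973 and 1900 in Pdk3 libraries, against 2469 and 2284 in Mock libraries. Csf1r, the receptor that macrophages need to survive, had 235 and 251 in Pdk3 libraries, against 301 and 300 in Mock libraries. C1qa of complement had 55 and 52 in Pdk3 libraries, against 88 and 81 in Mock libraries. Laptm5 had 266 and 256 in Pdk3 libraries, against 358 and 310 in Mock libraries. Cd68 and Laptm5 on this marker list are lysosomal proteins themselves, and many lysosomal genes, called lower or not, are known to be expressed by macrophages. No marker on the list was at 0 in any library, and the lowest value was 9, for Cd163. The part of these cells in the lysosomal values was not tested. In bulk samples such as these, fewer cells of a type and less RNA per cell cannot be told apart.

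The markers of heart muscle cells were present at high counts in all 4 libraries, as the label of the cells says. Of 11 tested, 5 were higher (45.5%) and 1 lower (9.1%), against 11.7% and 11.3% of all genes tested. With p floored at counting noise, 4 were higher and 1 lower. Among them Myh7, a myosin heavy chain, had 3972 and 3875 in Pdk3 libraries, against 3632 and 3588 in Mock libraries, and summed counts of the list were 23876 and 23520 in Pdk3 libraries, against 23042 and 22798 in Mock libraries. Myh6 and the cardiac actin gene Actc1 were higher too, Actc1 with 1488 and 1464 in Pdk3 libraries, against 1373 and 1331 in Mock libraries. With ribosomal protein scaling, 0 were higher and 1 lower. Ryr2, the calcium release channel, was the lower one, with 6970 and 6927 in Pdk3 libraries, against 7255 and 7253 in Mock libraries. Smooth muscle genes had 3 of 6 higher (50%) and 0 lower, also with p floored at counting noise. Cnn1, the calponin gene, was among the higher ones, with 706 and 726 in Pdk3 libraries, against 549 and 576 in Mock libraries. Acta2, with 982 and 955 in Pdk3 libraries, against 831 and 831 in Mock libraries, and Tagln, with 711 and 692 in Pdk3 libraries, against 580 and 598 in Mock libraries, were the others. With ribosomal protein scaling 3 were higher and 1 lower.

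Fibroblast markers had 1 of 11 lower (9.1%), the proteoglycan gene Dcn, and 1 higher (9.1%), Vim. These shares were not above the 11.3% and 11.7% of all genes tested. Both calls held with p floored at counting noise. With ribosomal protein scaling 5 of the 11 fibroblast markers were lower, against 29.0% of all genes, and 0 were higher. Their summed counts, to which Col1a1 and Col3a1 gave the most, were 6991 and 6816 in Pdk3 libraries, against 6976 and 6815 in Mock libraries. The median log2 fold change of the fibroblast list was -0.13, with 7 genes below 0 and 4 above. Endothelial markers had 2 of 8 lower (25%), Cdh5 and Tie1, and 0 higher, and both calls held with p floored at counting noise. At an unadjusted p under 0.05 (all genes: 18.6% lower, 17.8% higher), 3 of these 8 markers were lower and 1 higher (limma). Their sums, to which Kdr gave the most, were 1093 and 1054 in Pdk3 libraries, against 1134 and 1197 in Mock libraries. The median log2 fold change of the endothelial list was -0.27, with 7 genes below 0 and 1 above. The 61 ribosomal protein genes had a median log2 fold change of 0.08, with 0 past the threshold and 6 higher with TMM scaling. At an unadjusted p under 0.05 (all genes: 17.8% higher, 18.6% lower), 13 of these 61 genes were higher and 0 lower (limma). The ribosomal protein genes of highest mean were Rpl3 and Rpl4. Rpl3 had 929 and 907 in Pdk3 libraries, against 842 and 882 in Mock libraries. Rpl4 had 716 and 682 in Pdk3 libraries, against 662 and 651 in Mock libraries. The part of fibroblasts and endothelial cells in the lysosomal values was not tested.

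Members with and without the E-box were set side by side. Of the 11 members with the core CACGTG in their window and a row, 3 were lower (Gaa, Idua and Tmem175), with a median log2 fold change of -0.04. Of the 26 members with a window that lacked it, 7 were lower, with a median of -0.06. None of the 6 members with the 8-letter form (Lamp1, Mcoln1, Ctsd, Cln3, Galc and Igf2r) passed. Among all tested genes with the core, 109 of 920 were lower (11.8%) and 110 higher (12%), and of the 168 with the 8-letter form 21 were lower (12.5%) and 18 higher (10.7%). Both pairs of shares lie close to those of all genes tested.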

How the data were processed

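Per the submitters' processing notes, the tools were FastQC, Trimmomatic 0.39, STAR 2.6.1d, featureCounts 1.6.5 from Subread and DESeq2 1.26.0, with the rat build rn6. For settings, strand mode and treatment of duplicates the entry is: not given in the sources used here. The deposited values are treated as a score: whole numbers that the authors made from read counts per gene by dividing each library by a factor, since whole numbers were skipped in Pdk3 libraries and doubled in Mock libraries at regular steps. Factors estimated from these steps were 0.9246 and 0.9627 for Pdk3 1 and Pdk3 2 and 1.0255 and 1.0567 for Mock 1 and Mock 2. In Pdk3 1, 22 genes stood on whole numbers that its factor would skip, against 0 in Pdk3 2, so the factor of Pdk3 1 is approximate. The floor at counting noise and the chi-square values rest on these factors. Totals per library differed by at most 0.64%.

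Values were tested as log2(value + 1) with limma 3.58.1 in R 4.3.3 (lmFit, eBayes with an intensity trend, group as the only term), for genes with at least 10 in at least 2 libraries. The test is two-sided, and p-values were adjusted by Benjamini and Hochberg's method over the 12838 genes tested, with a threshold of 0.05. The fit had 2 residual and 5.56 prior degrees of freedom. Fold changes on this scale understate the change of low genes. Levels are not scaled by gene length, so they are not compared between genes. Intervals are 95% intervals from limma. The floor at counting noise covers counting error only, because reads that carry no molecular identifier can be copies of 1 molecule.

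The members and lists were chosen with earlier results of these data known. The text names all members and, from every other list, up to 3 genes past the threshold in each direction by smallest p, or the 2 of highest mean where none passed. The TCACGTGA search was added after the data were seen. The scripts were tested on simulated data. Promoter sequences come from RefSeq (GRCr8). List genes without a row were not analysed here.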

Additional observations from a re-analysis of the deposited data

How the results depend on the processing

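The number of lysosomal genes called lower moved with the processing. It was 11 in the fit reported and 28 with ribosomal protein scaling. It was 14 with a minimum value of 50 and 13 with 8 in place of 1 added to each value. It was 3 without a filter on low values, 0 without an intensity trend, 6 with p floored at counting noise and 4 at a false discovery rate of 0.01. It was 0 to 0 with any 1 library left out (limma with 1 residual degree of freedom, where the lone library of a group is assumed to vary like the others), where no gene in the table passed, Pdk3 included, so this says nothing about the members. At an unadjusted p under 0.05 and without a trend, 13 of the 44 tested members were lower (limma), against 15.4% of all genes. Members called higher numbered 0 in the fit reported and 1, Ctsb, with TMM scaling and with a minimum value of 50. Over all genes tested, 1449 were lower and 1496 higher. These numbers were 1685 and 1717 with a minimum value of 50, and 1486 and 1538 with 8 added to each value. The same alternatives gave 3706 and 929 with ribosomal protein scaling, 539 and 737 without a filter, 325 and 526 without a trend, 957 and 1077 with the floor, 576 and 766 at 0.01, and 0 to 0 in both directions with a library left out. For the 5 related lists together, 24 lower and 2 higher became 52 and 0 with ribosomal protein scaling, 10 and 1 without a filter, 2 and 0 without a trend, 13 and 1 with the floor, 10 and 1 at 0.01, and 0 to 0 with a library left out. With TMM scaling 4 were higher. The causes of these moves were not tested.

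With the replicate block, 9 members were lower and the calls of Ctsz and Ids ended. The labels share only a number, and deviations of same-numbered libraries had a correlation of 0.004. With 2 libraries a group and an estimated 4139000 to 4707000 reads in genes per library, the median half-width of the 95% interval of members that did not pass was 0.09 on the log2 scale.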
